A study of Mus musculus with 3 samples.

Results

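Neural progenitors of postnatal day 1 mice were electroporated in bulk or on a localized electroporation device, and their transcripts were counted cell by cell 4 h later. All cells of the bulk library are set here against all cells of the localized library, 11829 of the 17920 cells in the study. A droplet barcode counted as a cell when it held at least 3000 UMIs (unique transcript molecules), at least 500 genes and at most 20% of UMIs from mitochondrially encoded genes. This gave 5531 cells after bulk electroporation, 6298 after localized electroporation and 6091 in an untreated control library, which is shown beside them.

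All groups were brain progenitors cultured as floating neurospheres with 20 ng/mL epidermal growth factor, with 50000 cells plated on a poly-D-lysine coat 16 h before treatment. Bulk electroporation used program DS137 of a 4D Nucleofector Y unit. Localized electroporation applied 400 pulses of 20 V to cells lying on the device. Strain, sex and any cargo are not named in the labels, and the surface under the bulk and control cells is not given for each group, so method and surface cannot be told apart. Each group was 1 library of 10000 loaded cells. No difference below therefore has a replicate check, no test was possible, and intervals cover counting error only.

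Electroporation opens transient pores in the cell membrane with electric pulses. In the bulk form a whole population sits in one strong field, while in the localized form the field is focused on the patch of membrane that lies over the openings of the device. Injured or stressed cells are known to use several transcript programmes: the interferon response to misplaced nucleic acid, the integrated stress response that follows the factor ATF4, the p53 response to DNA damage and the immediate early response of Fos and Jun. Progenitors that give rise to glia are held in their state by Notch signalling, read out by Hes genes, and by bone morphogenetic protein signalling, read out by Id genes.

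The cells held 77491732 UMIs in bulk, 76177026 in localized and 61775756 in control, with medians per cell of 11644, 10980.5 and 9542 UMIs in the same order. Very deep cells were more common in bulk: cells above 25000 UMIs made up 9.64% of bulk, 2.75% of localized and 1.12% of control cells, and held 25.8%, 7.16% and 3.20% of each library's UMIs. No doublets were removed, and the part that doublets have in the deep cells was not tested. The median mitochondrial share was 4.12% in bulk, 3.42% in localized and 3.44% in control cells. Bulk and localized cells had 7 barcodes in common. Progenitor genes were high in both libraries: Sox2, a stem cell transcription factor, stood at 365 CPM in bulk and 363 CPM in localized cells, where CPM is the usual count scaled to the total UMIs in the library's cells. Markers of cells from outside the neural lineage were near 0. The 7 microglia markers summed to 0.194 CPM in bulk and 0.171 CPM in localized cells, with Aif1 and C1qa at 0 UMIs in both, the 5 endothelial markers to 3.08 and 3.79 CPM, with Cldn5 at 0 UMIs in both, and the 6 mural or fibroblast markers to 0.581 and 1.42 CPM.

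Most genes had like levels after both methods, and a small set differed strongly. Among the 6002 genes that reached 20 CPM in one or both libraries, 93.6% lay within 1.5-fold and the median log2 ratio of bulk over localized was -0.02, computed on CPM plus 1. At least 2-fold higher in bulk were 57 genes (0.95%), and at least 2-fold lower were 38 genes (0.633%). The higher genes were led by antiviral genes. The lower genes were led by Hes5, the lipid enzyme gene Pla2g7, the immediate early gene Fos, the oligodendrocyte lineage factor gene Sox10 and Id1.

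**Figure D1:**
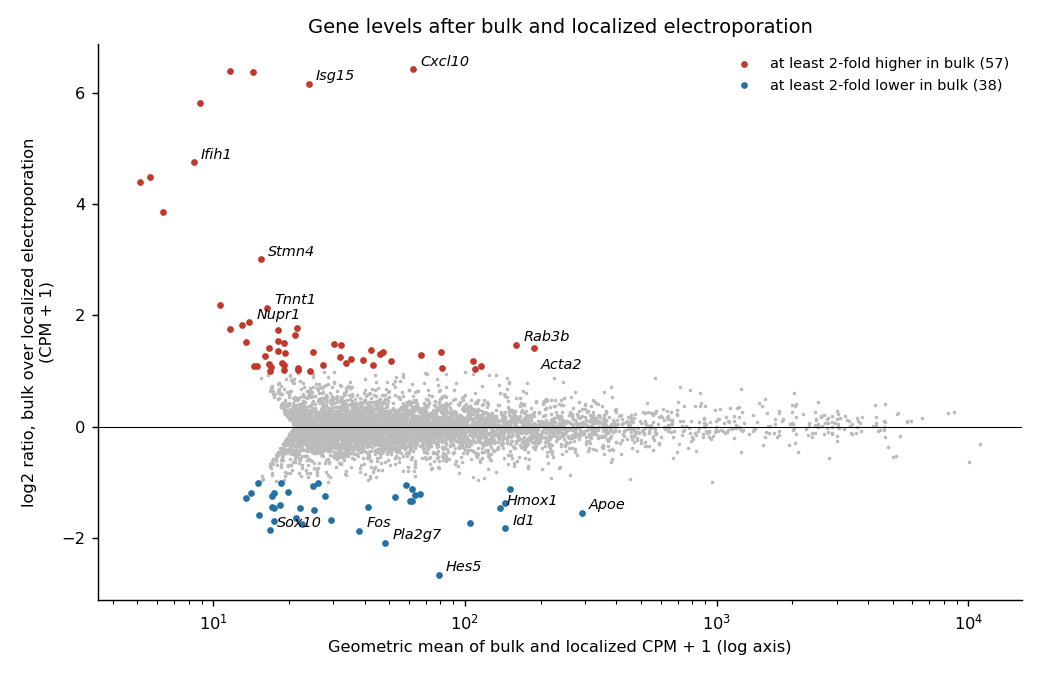
Each point is 1 of the 6002 genes, with the geometric mean of CPM plus 1 in bulk and localized cells on a log axis and the log2 ratio of bulk over localized on the other axis. The 57 genes at least 2-fold higher in bulk include a separate group above a ratio of 3, and the 38 lower genes reach -2.66 at Hes5.

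Without a replicate and with its surface not given, the control library cannot show which side of these differences departed from untreated cells. It lay between the methods for 1684 of the 6002 genes, above both for 1384 and below both for 2934. Among the 57 higher genes it lay between the methods for 35, above both for 14 and below both for 8. Among the 38 lower genes it lay between the methods for 21 and below both for 17. For 33 of the 38 lower genes, the control level was nearer to the bulk than to the localized level on the log scale, the exceptions being Hes5, Id2, Ier2, Rasl11a and Dynlt1b. Among the 57 higher genes the control was nearer to bulk for 34 and nearer to localized for 23, and these 23 held Cxcl10, Isg15, Rsad2, Ifih1, Ifit1, Ifit3, Oasl1, Oasl2, Rtp4 and the Gbp genes described below. Over all 6002 genes the control was nearer to bulk for 58.5%, close to the 59.6% of the higher genes and below the 86.8% of the lower genes. Genes chosen for a difference between these libraries had to have one of them far from the other, so these shares describe the genes and are no test.

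Interferon-response genes made up the largest differences. Cxcl10 encodes a chemokine that draws T cells and is induced by interferon (ENSMUSG00000034855, on the minus strand of GRCm38 chromosome 5 from 92346638 to 92348889, protein coding). It stood at 574 CPM (exact Poisson 95% interval 568 to 579) in bulk, 5.71 CPM (5.19 to 6.27) in localized and 3.50 CPM in control cells, a log2 ratio of 6.42 between the methods. Isg15, a ubiquitin-like modifier, stood at 202 CPM in bulk, 1.84 CPM in localized and 1.57 CPM in control cells. Rsad2, the antiviral enzyme viperin, stood at 130.4 CPM in bulk, 0.578 CPM in localized and 1.10 CPM in control cells. In each case only the bulk library was high, and the localized and control libraries lay close together.

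Stretches upstream of Isg15, Ifit1 and Cxcl10 are shown because these genes were all higher in bulk and each holds a known interferon-responsive element. The sequences are from RefSeq promoters on GRCm38.p6, each 100 bases long and written 5′ to 3′ on the strand of the gene, with the letters that match GAAA, any 2 bases, GAAA on either strand in capitals.
Isg15, chr4:156200830-156200929, minus strand: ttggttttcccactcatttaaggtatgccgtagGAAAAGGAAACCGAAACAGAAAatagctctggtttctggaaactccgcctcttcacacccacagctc
Ifit1, chr19:34640759-34640858, plus strand: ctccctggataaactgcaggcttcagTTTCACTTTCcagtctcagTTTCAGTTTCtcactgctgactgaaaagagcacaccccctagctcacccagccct
Cxcl10, chr5:92349040-92349139, minus strand: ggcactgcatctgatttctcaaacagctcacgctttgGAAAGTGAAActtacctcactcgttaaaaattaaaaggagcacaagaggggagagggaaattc
The Isg15 stretch holds 3 overlapping matches, that of Ifit1 2 matches on the opposite strand and that of Cxcl10 1 match. In the 250 bases upstream of each gene's start, the letters occurred in 8 of 22 interferon-response genes with a promoter (36.4%), against 936 of all 27025 genes (3.46%). Of the 57 genes higher in bulk, 49 had a promoter and 8 of these held the letters (16.3%). No match was found for Ifih1, Oasl1 or Oasl2. A match describes these letters and does not show a bound site.

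The interferon list held sensors, transcription factors and effectors. Of its 30 members 28 were in the files, Mx1 and Mx2 being absent, and 19 reached 5 CPM in either library. All 19 were higher in bulk and 14 at least 2-fold, but 15 of the 19 reached 5 CPM in bulk alone, so the minimum itself fixed their direction. With no minimum applied, bulk was higher for all 28. The share over all genes, 45.1% of 9867, was counted with the 5 CPM minimum, so it is not at a like threshold. In cells of 3000 to 6000 UMIs 3 of 11 members of at least 5 CPM were lower in bulk. Within the precursor-like cluster 5, described below, it was 2 of 6. Among the sensors, Ifih1, which encodes the double-stranded RNA receptor MDA5, stood at 42.5 CPM in bulk, 0.617 CPM in localized and 0.550 CPM in control cells. The sensor Ddx58, which encodes RIG-I, stood at 9.19 CPM in bulk and 2.84 CPM in localized cells. Among the transcription factors, Irf9, part of the interferon-activated complex, had 5.74 CPM in bulk and 2.51 CPM in localized cells. With no minimum level, the median log2 ratio was 0.95 over 5 transcription factors and 2.78 over 17 effectors.

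Effectors with nearly no transcripts after localized electroporation set the upper end. Ifit1, which binds viral RNA, stood at 105 CPM in bulk, 0.276 CPM in localized and 0.567 CPM in control cells. Oasl1, a relative of the oligoadenylate synthetases, stood at 65.6 CPM in bulk, 0.184 CPM in localized and 0.227 CPM in control cells. Ifit3 had 25.7 CPM in bulk and 0.184 CPM in localized cells, and reads may be split between it and its close copy Ifit3b. Oasl2 had a log2 ratio of 4.39 and Rtp4, an interferon-induced chaperone gene, 3.86. Genes of guanylate-binding proteins outside the list were also higher: Gbp2 with 21.6 CPM in bulk and 3.99 CPM in localized cells, Gbp7 with 38.9 and 10.6 CPM, and Gbp3 with a log2 ratio of 1.12. Effectors with a base level in all libraries differed by unlike amounts. Ifit2, a relative of Ifit1, stood at 21.8 CPM in bulk, 6.93 CPM in localized and 5.47 CPM in control cells. Ifitm3, a membrane protein gene that blocks virus entry, stood at 96.9 CPM in bulk, 73.9 CPM in localized and 76.9 CPM in control cells.

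Among chemokines and inflammatory signals the difference was narrow. Ccl5, another chemokine of the antiviral response, stood at 19.6 CPM in bulk against 0.0131 CPM in localized cells, where it had 1 UMI, and the log2 ratio without a pseudocount had an interval of 8.06 to 15.85. Ccl2 stood at 2.09 CPM in bulk and 1.97 CPM in localized cells. The NF-kB inhibitor gene Nfkbia stood at 37.8 and 41.5 CPM in the same order, and Tnf and Il1b had 0 UMIs in both libraries. Relb, an NF-kB subunit gene, was higher at 11.2 CPM in bulk and 4.61 CPM in localized cells. Of the 4 antigen presentation genes of at least 5 CPM, 2 were higher and 2 lower, with B2m at 50.7 CPM in bulk and 48.4 CPM in localized cells.

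The transcripts were spread unevenly over bulk cells. With every cell thinned to 3000 UMIs, 28.6% of bulk cells held a Cxcl10 UMI (exact Clopper-Pearson interval 27.4 to 29.9), against 0.873% of localized cells (0.659 to 1.14) and 0.394% of control cells. Without thinning the shares were 45.6% of bulk, 2.22% of localized and 1.12% of control cells. For Isg15 the thinned share was 16.4% in bulk, 0.159% in localized and 0.213% in control cells. Counted over all 28 list genes, 43.4% of thinned bulk cells held at least 1 UMI, against 25.1% of localized and 22.3% of control cells, and the median was 0 UMIs in all 3. In bulk, 70.4% of the list's thinned UMIs lay in the top 10% of cells. One bulk cell held 627 Cxcl10 UMIs, while the highest localized cell held 35. No cell class here is known to lack Cxcl10, so part of the shares may be free RNA, whose part was not tested. Barcodes of 10 to 100 UMIs, which mostly hold free RNA, carried Cxcl10 at 393 CPM in bulk, 33.2 CPM in localized and 29.4 CPM in control.

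**Figure D2:**
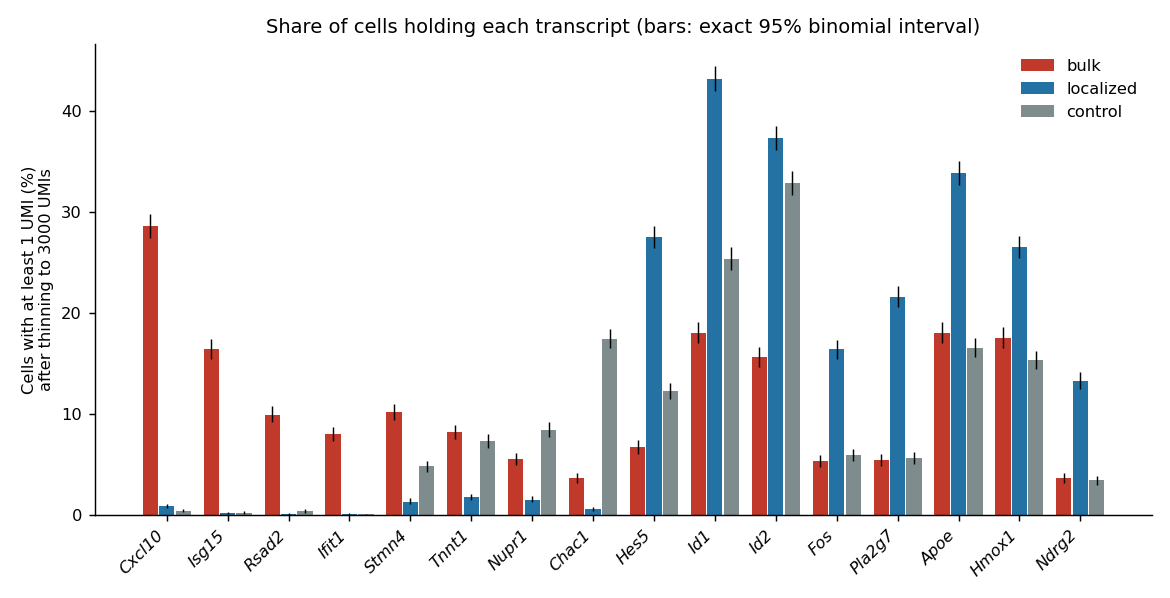
Bars give the percentage of cells with at least 1 UMI of each gene after thinning to 3000 UMIs, for bulk, localized and control cells from left to right, and lines give exact 95% binomial intervals. Antiviral genes are near 0 outside bulk, Chac1 is highest in control at 17.5%, and Hes5, Id1, Fos, Pla2g7 and Apoe are highest in localized cells.

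Stmn4, Tnnt1 and Ddr2 were also higher in bulk, in another pattern. Stmn4, a stathmin that loosens microtubules, stood at 42.8 CPM in bulk, 4.45 CPM in localized and 18.2 CPM in control cells. Tnnt1, a troponin of slow muscle, stood at 33.4 CPM in bulk, 6.84 CPM in localized and 33.1 CPM in control cells. Ddr2, a collagen receptor gene, stood at 23.5 CPM in bulk, 5.91 CPM in localized and 20.9 CPM in control cells. For Tnnt1 and Ddr2 the localized library alone was low, while for Stmn4 the control lay between. Localized was also the low library for Acta2, the smooth muscle actin gene, at 307 CPM in bulk, 114 CPM in localized and 249 CPM in control cells, and for Rab3b, a vesicle transport gene, at 265, 94.9 and 275 CPM in the same order. In cells of 3000 to 6000 UMIs Acta2 had no such difference, at 74.9 CPM in bulk, 73.2 CPM in localized and 60.3 CPM in control cells.

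Integrated stress response genes were higher in bulk than in localized cells, and 28 of 37 were higher in the control than in bulk. Of these 37 members, which reached 5 CPM, 35 were higher in bulk and 13 at least 2-fold, with a median log2 ratio of 0.75. The exceptions were Psph, a serine synthesis enzyme gene at -0.19, and Cebpb at -0.05. Over all 9867 genes of at least 5 CPM the median was -0.03, and 1.07% were at least 2-fold higher. Summed over the 38 members, the level was 3370 CPM in bulk, 2121 CPM in localized and 4345 CPM in control cells. In thinned cells the list had a median of 8 UMIs in bulk (quartiles 6 and 12), 6 in localized (4 and 8) and 12 in control cells (7 and 17), so single cells overlapped widely.

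The regulators stood at the top of this list. Chac1 encodes an enzyme that breaks down glutathione (ENSMUSG00000027313, GRCm38 chromosome 2, 119351229 to 119354381, plus strand). It stood at 14.8 CPM (13.9 to 15.7) in bulk, 1.80 CPM (1.51 to 2.13) in localized and 71.9 CPM in control cells. Trib3, a pseudokinase that restrains ATF4, stood at 8.56 CPM in bulk, 1.05 CPM in localized and 37.0 CPM in control cells. Nupr1, a stress-induced chromatin protein gene, had 25.7, 6.28 and 37.9 CPM in bulk, localized and control cells, and Atf3, a repressor of the ATF family, 20.5, 5.38 and 59.4 CPM. Over all cells they were in the same order: control, then bulk, then localized. In cells of 3000 to 6000 UMIs Chac1 and Nupr1 kept this order. Atf3 did not, at 12.8 CPM in bulk, 21.0 CPM in localized and 31.5 CPM in control cells. Atf4 itself stood at 177 CPM in bulk, 104 CPM in localized and 327 CPM in control cells. All 12 transfer RNA synthetase genes were higher in bulk, from 0.36 to 1.34 on the log2 scale, led by Cars at 74.6 CPM in bulk and 28.9 CPM in localized cells. Asns, which makes asparagine, stood at 161 CPM in bulk, 70.8 CPM in localized and 172 CPM in control cells.

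Upstream stretches of the list's leading regulator and of Asns are shown for their ATF4 element, again from RefSeq on GRCm38.p6, with matches to TGATGNAA on either strand in capitals.
Chac1, chr2:119351003-119351102, plus strand: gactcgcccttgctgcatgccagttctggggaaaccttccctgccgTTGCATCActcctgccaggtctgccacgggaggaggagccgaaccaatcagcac
Asns, chr6:7693210-7693309, minus strand: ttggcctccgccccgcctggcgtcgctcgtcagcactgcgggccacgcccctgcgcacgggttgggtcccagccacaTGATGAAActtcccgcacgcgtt
These letters occurred in 10 of 30 list members with a promoter (33.3%), against 3.91% of all genes, and in 1 of 22 interferon-response genes (4.55%). The interferon-responsive letters occurred in 1 of the 30 stress-response genes (3.33%).

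Targets of p53 were moderately higher in bulk. Of 19 measured, 16 were higher, 3 of them at least 2-fold, with a median log2 ratio of 0.43. Among all 9867 genes, 45.1% were higher and 1.07% at least 2-fold higher. Bbc3, which encodes the cell death protein PUMA, stood at 38.9 CPM in bulk, 14.7 CPM in localized and 29.8 CPM in control cells. Ccng1, a cyclin that follows p53, stood at 140.5 CPM in bulk, 70.5 CPM in localized and 110.2 CPM in control cells. Cdkn1a, the cell cycle inhibitor p21, stood at 773 CPM in bulk, 419 CPM in localized and 564 CPM in control cells. Gdf15, a stress cytokine gene, was highest in the control at 119 CPM, with 29.4 CPM in bulk and 11.2 CPM in localized cells. In cells of 3000 to 6000 UMIs Gdf15 stood at 7.63 CPM in bulk and 9.04 CPM in localized cells, from 22 UMIs in each. Btg2, Rrm2b and Sesn1 were lower in bulk, with log2 ratios of -0.47, -0.29 and -0.19.

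**Figure D3:**
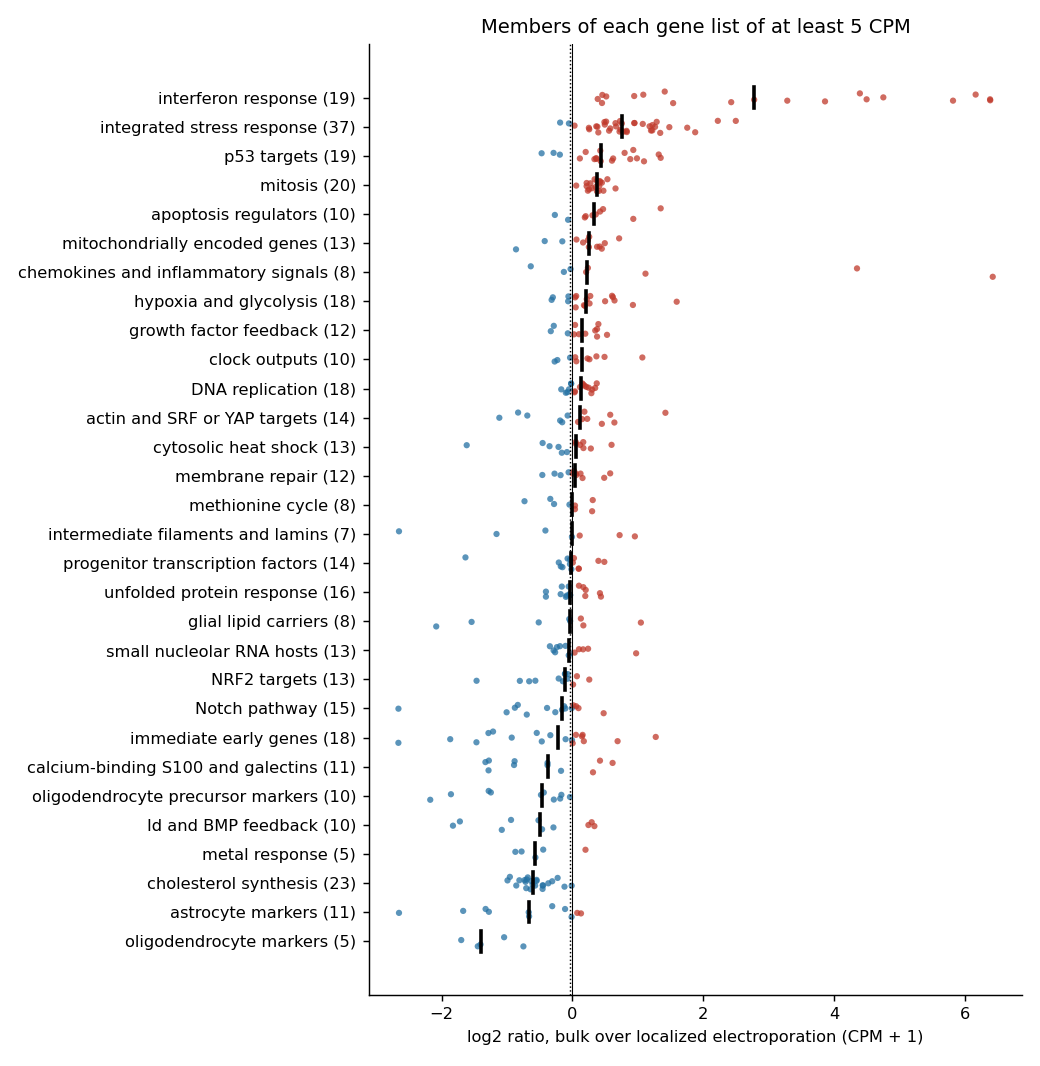
Each point is a member of a gene list with at least 5 CPM in either library, placed by its log2 ratio of bulk over localized, red above 0 and blue below. Black bars are list medians, the dotted line is the median of all 9867 genes (-0.03), and the number of members stands behind each name. Interferon, stress-response and p53 lists lie to the right, and cholesterol synthesis and glial markers to the left.

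Notch targets and Id genes were lower in bulk, with exceptions. Hes5 is the main Notch effector gene of neural progenitors (ENSMUSG00000048001, GRCm38 chromosome 4, 154960923 to 154962371, plus strand). It stood at 30.4 CPM in bulk (29.1 to 31.6), 197 CPM in localized (194 to 200.2) and 90.9 CPM in control cells, so the control lay between the methods. After thinning, 6.71% of bulk cells, 27.5% of localized cells and 12.3% of control cells held a Hes5 UMI. Bulk had the lower level for 11 of 15 measured Notch genes, and their median log2 ratio was -0.16, against -0.03 for all 9867 genes, of which 45.1% were higher in bulk. The receptor genes Notch1 (0.06), Notch2 (-0.13) and Notch3 (0.09) had nearly the same levels after both methods, while the ligand genes Dll3 (-1.01) and Dll1 (-0.88) were lower. Among the targets Nrarp had -0.84 and Hey1 -0.39. Hes1, another Notch target, went the other way at 36.8 CPM in bulk, 26.2 CPM in localized and 42.8 CPM in control cells.
The upstream stretch of Hes5 is shown with GTGGGAA, the letters read by the Notch-bound factor RBPJ, in capitals (RefSeq, GRCm38.p6).
Hes5, chr4:154960793-154960892, plus strand: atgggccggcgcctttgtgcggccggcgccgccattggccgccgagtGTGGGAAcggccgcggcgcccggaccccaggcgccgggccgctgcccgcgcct
These letters, searched on both strands, occurred in the promoters of 6.18% of all genes, and were also found upstream of Isg15.

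All 4 Id genes, whose products block differentiation factors, were lower in bulk. Id1 stood at 75.9 CPM in bulk, 272 CPM in localized and 137 CPM in control cells. Id2 stood at 56.7 CPM in bulk, 189 CPM in localized and 178.5 CPM in control cells. Id3 had 325, 624 and 338 CPM, and Id4 8.80, 19.7 and 4.50 CPM, in bulk, localized and control cells. Id2 was thus low in bulk alone, whereas Id3 was high in localized cells alone. Other genes of bone morphogenetic protein feedback went both ways, with 3 of 6 lower, Smad7 at -0.52 and Bambi at 0.34.

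Of 7 Fos and Jun genes 6 were lower in bulk, while 45.1% of all 9867 genes of at least 5 CPM were higher. Of the 7 genes 2, Fosb among them, reached 5 CPM in localized cells alone, so the minimum itself fixed their direction. Fos stood at 18.9 CPM in bulk, 71.5 CPM in localized and 23.3 CPM in control cells. Fosb stood at 0.852 CPM in bulk, 10.7 CPM in localized and 1.39 CPM in control cells. Junb stood at 12.4 CPM in bulk, 35.9 CPM in localized and 11.5 CPM in control cells. These genes were highest in the localized library and near the control level in bulk. Jun did not share this order, with 135 CPM in bulk, 198 CPM in localized and 263 CPM in control cells. Klf4, of the Egr, Ier and Klf group, was higher in bulk at 23.9 CPM, against 9.32 CPM in localized and 50.02 CPM in control cells.

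Cholesterol synthesis genes shifted together by a small amount when all cells were pooled. All 23 measured had lower levels in bulk, none of them by 2-fold, and the median log2 ratio was -0.61. For comparison, bulk had the higher level for 45.1% of all 9867 genes of at least 5 CPM, whose median was -0.03. Among the clusters described below, all 23 were lower in clusters 0, 1 and 4, and 22 in cluster 2. In the oligodendrocyte-like cluster 3, 4 of 23 went the other way, and in the precursor-like cluster 5 it was 5 of 23. The median was -0.21 in both. Mvd, an enzyme of the mevalonate steps, stood at 24.0 CPM in bulk, 44.2 CPM in localized and 44.9 CPM in control cells. Lss, which closes the sterol rings, stood at 18.5 CPM in bulk, 33.2 CPM in localized and 35.9 CPM in control cells. Srebf2, the master factor, had 68.5 CPM in bulk and 69.1 CPM in localized cells. In thinned cells the list had a median of 5 UMIs in bulk, 7 in localized and 8 in control cells.

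Among glial lipid carriers, 3 of 8 were higher in bulk and 5 lower, with a median log2 ratio of -0.04, near that of all genes, but single members differed strongly. Apoe, the lipid carrier of astrocytes, stood at 170.1 CPM in bulk, 497 CPM in localized and 131 CPM in control cells. Pla2g7, which breaks down oxidized phospholipids, stood at 22.5 CPM in bulk, 98.5 CPM in localized and 23.4 CPM in control cells. Outside this list, the heme oxygenase gene Hmox1 stood at 81.9 CPM in bulk, 228 CPM in localized and 68.9 CPM in control cells. In all 3 genes the bulk and control levels lay close together. Hmox1 belongs to the targets of the antioxidant factor NRF2. Bulk had the lower level for 10 of 13 such targets, and their median was -0.11. Over all 9867 genes of at least 5 CPM, 45.1% were higher in bulk and the median was -0.03. Furthest below 0 after Hmox1 were Srxn1 at -0.80, Gsr at -0.66 and Gclm at -0.57, while 3 targets were higher, up to 0.26. Clu, another lipid carrier gene, went the other way at 19.8 CPM in bulk and 9.10 CPM in localized cells.

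Most markers of glia were lower in bulk, while 45.1% of all 9867 genes of at least 5 CPM were higher. Of 11 astrocyte markers 9 were lower, but 2 of the 11, Gfap among them, reached 5 CPM in localized cells alone, so the minimum itself fixed their direction. Gfap stood at 1.57 CPM in bulk, 15.2 CPM in localized and 0.842 CPM in control cells, and Ndrg2 at 15.5, 51.4 and 11.9 CPM. Slc1a3, an astrocyte glutamate transporter gene that progenitors also use, had a log2 ratio of 0.13. All 10 oligodendrocyte precursor markers were lower, led by Gpr17 at 2.17 CPM in bulk and 13.3 CPM in localized cells and Sox10 at 7.82 and 30.9 CPM. Gpr17 reached 5 CPM in localized cells alone. The direction was not uniform: in cells of 3000 to 6000 UMIs 3 of 10 were higher in bulk. Within the clusters described below, 3 of 6 were higher in clusters 0 and 2. In the precursor-like cluster 5 it was 3 of 10, and in cluster 3 it was 1 of 10. Olig2, the lineage factor with the broadest use, had 255 CPM in bulk and 262 CPM in localized cells. Of 14 progenitor transcription factors 8 were lower and 6 higher, and Hopx alone passed 2-fold, at 11.1 CPM in bulk, 36.6 CPM in localized and 12.6 CPM in control cells.

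Genes of mitosis were slightly higher in bulk, all 20 of them, with a median log2 ratio of 0.37 and none at 2-fold. For this and the following lists, the share over all 9867 genes of at least 5 CPM was 45.1% higher in bulk. At least 2-fold higher were 1.07% of them, and their median was -0.03. Top2a, which untangles chromosomes, stood at 317 CPM in bulk, 218 CPM in localized and 323 CPM in control cells. DNA replication genes had a median of 0.13. Mitochondrially encoded genes were higher in 10 of 13, with mt-Nd3 at 0.71, while mt-Atp8 had -0.86 and mt-Nd4l -0.42. These last genes overlap their neighbours mt-Atp6 (0.26) and mt-Nd4 (0.49), so reads cannot be assigned with certainty. Glycolysis and hypoxia genes were higher in 14 of 18, with Gapdh at 0.60 and Ndrg1, which reached 5 CPM in bulk alone, at 1.59. This direction turned in cells of 3000 to 6000 UMIs, with 4 of 18 higher and a median of -0.16. It also turned in the oligodendrocyte-like and precursor-like clusters described below, with 5 of 18 and 7 of 17 higher. Heat shock genes were split 7 higher and 6 lower, and unfolded protein response genes 6 higher and 10 lower.

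Depth bore on some of these results. The Cxcl10 log2 ratio was 3.48 among cells of 3000 to 6000 UMIs and 8.37 among cells above 25000 UMIs. The Cxcl10 level in bulk rose with depth as well, at 130 CPM in the shallowest and 997 CPM in the deepest cells. The stress-response median was 0.57 in the shallowest and 1.04 in the deepest cells. Hes5, Id1 and Fos stayed below -1.5 in all 4 depth ranges. Other called genes differed little in the shallowest range, where the log2 ratio was 0.03 for Acta2, -0.23 for Id2 and 0.05 for Hopx. Apoe differed most in shallow cells, with a log2 ratio of -4.04. The mitosis median was 0.35, 1.06, 0.14 and -0.12 from the shallowest to the deepest range, so the higher mitotic level did not hold among the deepest cells. Cholesterol synthesis had -0.02 in the shallowest range, with 14 of 23 lower, and -0.91 in the deepest. Without the cells above 25000 UMIs, 35 genes were at least 2-fold higher and 37 lower. Leaving the 20 CPM minimum aside, 43 of the 57 higher genes stayed past 2-fold, and all 57 stayed higher. The Cxcl10 log2 ratio was then 5.93.

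**Figure D4:**
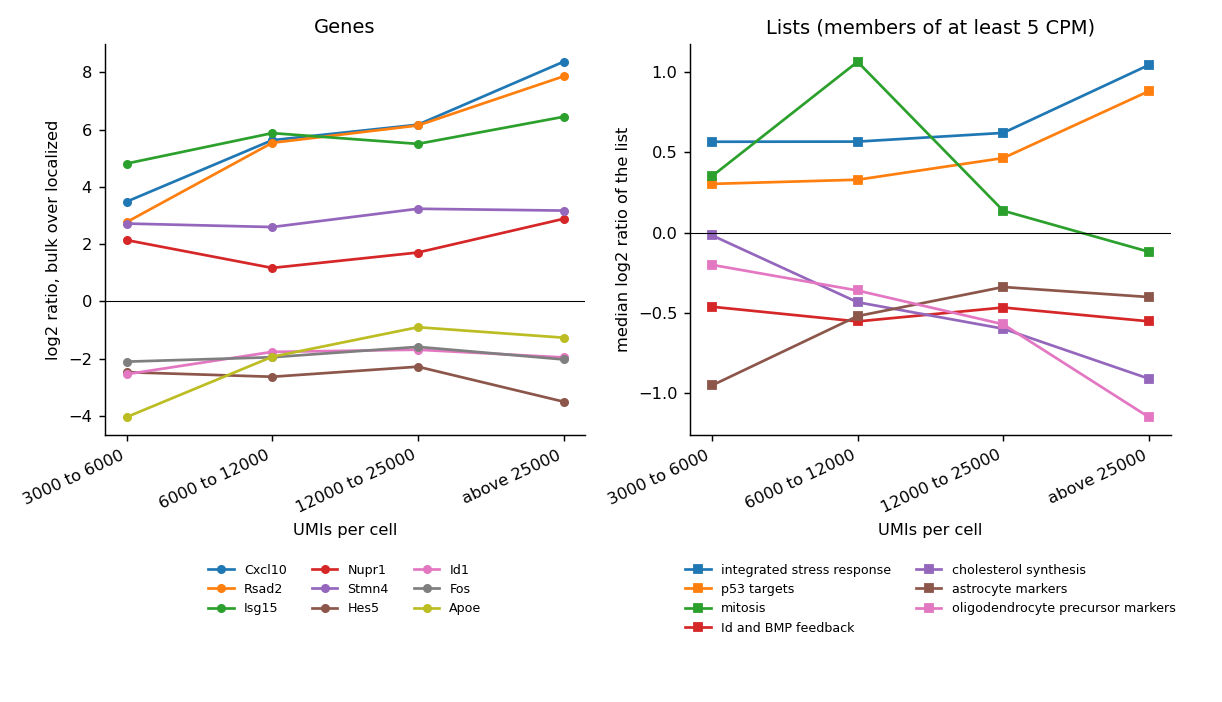
Log2 ratios of bulk over localized are drawn for 9 genes and as medians of 7 lists within 4 ranges of UMIs per cell. Cxcl10 goes up with depth, Hes5, Id1 and Fos stay between -1.58 and -3.50, and the mitosis median falls from 1.06 to -0.12 over the 3 deeper ranges.

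To give values within groups of like cells, bulk and localized cells were clustered without the 1053 genes that differed at least 1.5-fold between them. Of 8 clusters, 6 held at least 300 cells of each library. The astrocyte-like cluster 0 held 29.3% of bulk and 32.0% of localized cells. Its name rests on the markers Gfap and Aqp4 in both libraries pooled, and Gfap was low in the bulk library as a whole, at 1.57 CPM against 15.2 CPM in localized cells. The dividing-like cluster 1 held 28.0% of bulk cells, with an interval of 26.8 to 29.2, and 21.1% of localized cells, with 20.1 to 22.1. In the replicating-like cluster 2 were 11.3% of bulk and 20.1% of localized cells. The oligodendrocyte-like cluster 3, whose leading genes included precursor markers too, held 11.8% of bulk and 13.5% of localized cells. Cluster 4, led by the mitosis genes Cenpa and Cdc20 and left unnamed, held 8.03% of bulk and 7.02% of localized cells. The oligodendrocyte precursor-like cluster 5 held 8.33% of bulk and 5.24% of localized cells. The named classes were much smaller with finer clusters (resolution 1). Astrocyte-like cells then made up 4.18% of bulk and 9.35% of localized cells, and dividing-like cells 11.6% of bulk and 10.1% of localized cells. The names rest on rebuilt clusters and marker lists, not on an annotation of the study's authors. Cluster 6, unnamed, held 122 bulk cells and 12 localized cells. Its leading genes were Rpgrip1, Ccl5, Slc39a1, Notch2, Oasl2, Ifit1, Uhrf1bp1, Isg15, Rsad2 and Sesn2. Leading genes were ranked over both libraries pooled, so in a cluster mostly of bulk cells they can include genes that are high in bulk as a whole. Cluster 7, also unnamed, held 51 bulk and 54 localized cells at a median of 4176 UMIs.

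Ratios were also taken within each cluster. Of the 57 higher genes 50 were higher in all 6 large clusters and 11 at least 2-fold in each. Of the 38 lower genes 33 were lower in all 6 and 9 at least 2-fold in each. The genes were chosen for their ratio over these same cells, so these counts describe them and are no test. Cxcl10 was carried unevenly: 41.7% of thinned bulk cells held it in the dividing-like cluster 1, 32.8% in cluster 0, 26.4% in cluster 4 and 15.5% in cluster 2. In the oligodendrocyte-like cluster 3 and the precursor-like cluster 5 the bulk shares were 8.70% (6.66 to 11.1) and 8.46% (6.08 to 11.4). Median depth in bulk cells was 16886.5 UMIs in cluster 1, 11296 in cluster 0, 9040 in cluster 4 and 12175 in cluster 2. It was 5858 UMIs in cluster 3 and 8952 in cluster 5. The part that depth has in these shares was not tested.

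Some lower genes differed in only part of the 6 clusters. Id2 had log2 ratios of -2.37, -2.23, -1.43 and -1.39 in clusters 0, 1, 2 and 4, but 0.00 in cluster 3 and -0.11 in cluster 5. In cluster 3 it stood at 166 CPM in bulk and 165 CPM in localized cells. Hmox1 had -2.03 in cluster 0 and 0.26 in cluster 5, and Hopx -2.09 and 0.07 in the same clusters. Apoe went furthest in cluster 3, at -3.46, and Hes5 in cluster 0, at -3.34. Hes5, Id1, Fos and Junb were lower in all 6 clusters. The mitosis median was -0.03 within the dividing-like cluster 1 and 0.66 within the replicating-like cluster 2. Astrocyte markers were lower in 10 of 10 measured members within cluster 0, with a median of -0.73. With 1 library per method, these differences between clusters were not tested.

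**Figure D5:**
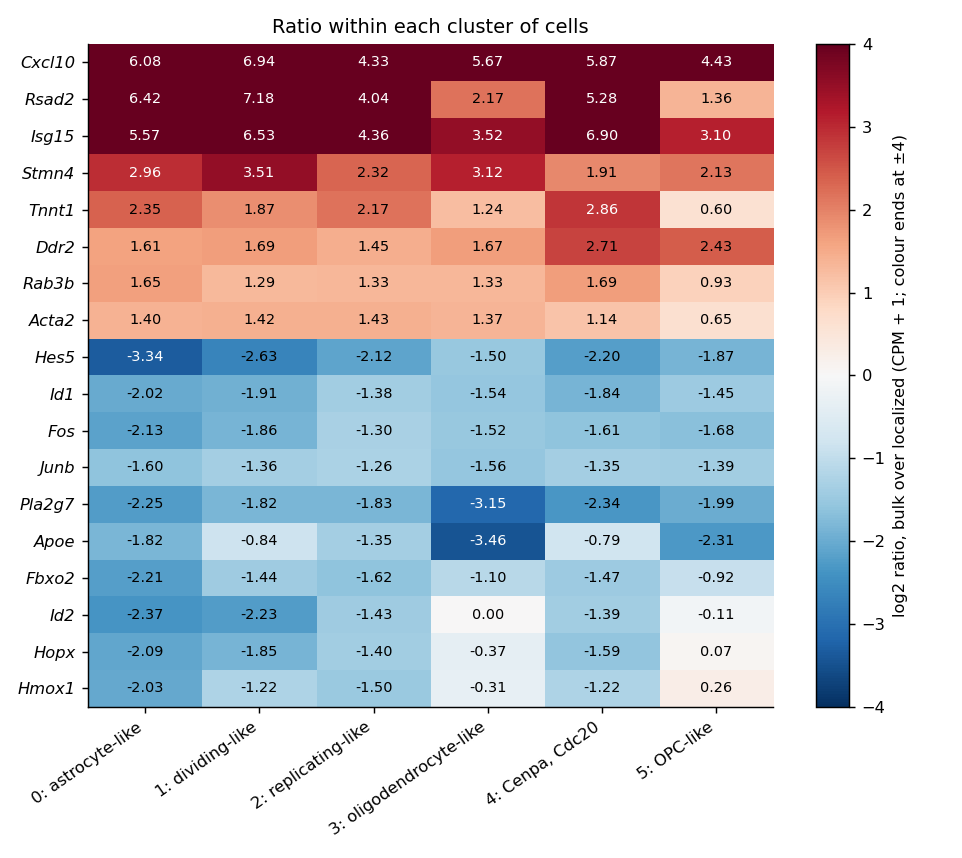
Each tile gives the log2 ratio of bulk over localized for 18 genes in the 6 clusters with at least 300 cells of each library, red where higher in bulk and blue where lower. Cxcl10 is 4.33 or more in every cluster, while Id2, Hopx and Hmox1 are near 0 in clusters 3 and 5.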

How the data were processed

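Single-cell 3' libraries of 3 groups, 1 each, were analysed. The authors deposited raw UMI counts of 32285 genes, empty barcodes included, for 1591037 to 1726139 barcodes per library. Per the submitters' processing notes, the tools were Cell Ranger 6 and Seurat 4.0.4, with GRCm38 as the build. The matrix, per the file headers, was written by Cell Ranger 4. Its gene annotation release is not given in the sources used here.

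Cells were selected as described, UMIs were summed over cells and scaled to CPM. A pseudocount of 1 CPM was added before the log2 ratio, so that ratios of genes near 0 are understated. Depth ranges from 61775756 to 77491732 UMIs in cells. Intervals are at 95%, and molecules counted once per barcode still cover counting error only. Clustering used 2000 variable genes, centred and scaled within each library, 30 components, 15 neighbours and Leiden resolution 0.5 (leidenalg 0.10.2, scikit-learn 1.9.0, Python 3.11.15). No doublet caller was run. The ratio and interval code was tested on simulated data. Coordinates come from GENCODE vM21.

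The genes, 36 lists and the deepest-cell limit were chosen with earlier results of these data known. The rule for names took the 15 highest and the 15 lowest ratios from 20 CPM on, leaving out genes known only by a predicted or Riken name and those of ribosomal proteins, plus at most 4 members of a list. Other genes in the text, such as Asns, Atf4, Cars, Cdkn1a, Gbp3, Hes1, Ifitm3, Irf9, Jun, Klf4 and Rab3b, lie outside this rule and were chosen after their values were seen. Alternatives were scaling, pseudocount, minimum level, cell depth, mitochondrial limit, equal weight per cell, removal of free RNA and cluster resolution.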

Additional observations from a re-analysis of the deposited data

How the results depend on the processing

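No paired analysis was possible because each group was 1 library, and for the same reason no library could be left out. With a minimum of 50 CPM, genes at least 2-fold higher in bulk numbered 21 and genes at least 2-fold lower in bulk 18, and with no minimum 145 and 103. With cells above 25000 UMIs left out, which was added after the data had been seen, 35 were higher, all of them among the 57. The 62 named genes past 2-fold kept their sign in all 10 settings, and 43 to 62 stayed past 2-fold. Scaling by median of ratios moved every log2 ratio by 0.06. Without thinning, shares of cells with a UMI were 45.6% in bulk and 2.22% in localized cells for Cxcl10, 16.9% and 48.3% for Hes5, 45.9% and 71.1% for Id1, and 18.7% and 42.1% for Fos. The share of dividing-like cells, bulk minus localized, was 6.87 percentage points, 1.47 with Leiden resolution 1 and 8.95 in cells from 6000 UMIs. For replicating-like cells it was -8.73 points and -6.34 with resolution 1, and for astrocyte-like cells -2.65 and -5.18. Oligodendrocyte lineage-like cells reversed, at 1.43 points and -0.714 in cells from 6000 UMIs. The causes were not tested. Depth limits genes with a few UMIs, such as Ccl5 in localized cells.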
